A study of Mus musculus with 30 samples.

Results

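The proteins of the mitochondrial ribosome are described here across RNA libraries of mouse 8-cell embryos with and without knockdown of Yy1, which codes for the DNA-binding protein YY1. Members were the rows of the deposited expression table whose symbol is Mrpl or Mrps followed by a number and, in some, a letter a to c. The rule found 78 genes among 49585 rows, 49 named for the large subunit (Mrpl) and 29 for the small subunit (Mrps), and it used no measured value. All 78 symbols matched a RefSeq gene, and 0 stood on more than 1 row.

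Of the 30 samples in the series, 4 are used here and the other 26, which are MNase-seq and CUT&RUN libraries, were not analysed here. The control group holds 2 RNA libraries of embryos at the 8-cell stage after control knockdown, and the other group 2 RNA libraries at the same stage after knockdown with the Yy1 siRNA numbered 1. Both groups carry the strain label BDF1 x BDF1 and were cultured in KSOM. The labels name no second siRNA for RNA, give no number of embryos per library and do not say whether replicates were collected separately, so the p-values measure no more than how far these libraries differ, and that spread may be technical. By its title the series is about YY1 and nucleosomes in early development, and the comparison asks how these transcripts differ when Yy1 is knocked down.

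Mitochondria hold their own ribosomes, built from 2 rRNAs encoded by mitochondrial DNA and from proteins that are all encoded in the nucleus, made in the cytosol and imported. These ribosomes translate only the mitochondrial mRNAs, which code for subunits of the respiratory chain and ATP synthase. Part of the proteins descend from bacterial ribosomal proteins and part were added in the mitochondrial lineage. The early embryo inherits its mitochondria from the oocyte and does not replicate their DNA for most of cleavage, while nuclear genes for mitochondrial proteins are transcribed anew after the zygotic genome is activated.

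The values are FPKM, which are fragments divided by the length of the gene and by the size of the library. Library totals recovered from the steps between values were 29302489 to 34429515 fragments. The targeted Yy1 transcript was at 77.7 and 71.2 FPKM after control knockdown and at 5.89 and 7.98 FPKM after Yy1 knockdown, a mean 10.7-fold lower, with a limma adjusted p of 0.0556, which missed the threshold of 0.05. The limma adjusted p of Yy1 was below it with a filter of 5 FPKM (0.0108), robust eBayes (0.0496) and voom on recovered fragments (4.8e-05), and ran up to 0.809 over the alternatives. Of 10 early embryo markers 10 passed the filter, with Dppa3 at 1985 to 2128 FPKM and Pou5f1 at 178 to 214 FPKM. By group mean 8 of these 10 were lower and 2 higher. Among them Zfp42 (30.7 and 30.2 FPKM in control, 5.43 and 3.99 FPKM after knockdown) and Klf17 (61.2 and 38.2 FPKM, then 83.3 and 69.2 FPKM) had an unadjusted p under 0.05, with limma adjusted p values of 0.0928 and 0.556. Of 10 cumulus and granulosa cell markers only Amhr2 passed, at 5.35 and 4.74 FPKM in control against 7.8 and 7.3 FPKM in knockdown libraries, and 4 of the 10 were at 0 in every library. The summed level of these 10 markers was 5.43 and 4.92 FPKM in control against 7.99 and 7.74 FPKM in knockdown libraries, and the part of such cells in the results below was not tested. Sperm markers summed to at most 1.5 FPKM and blood markers to at most 1.75 FPKM in a library.

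Nearly the whole mitochondrial ribosome was expressed in the 8-cell embryo. Of the 78 members 77 averaged 1 FPKM or more over the 4 libraries and were tested, 48 large and 29 small. The exception, Mrpl53, a protein of the large subunit, was listed at 0, 0.0806, 0 and 0 FPKM, which corresponds to 1 fragment in all libraries together. The tested members rested on 40 to 4733 fragments per library, and 2 of them had fewer than 100 fragments in some library.

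Transcript levels of the tested members spanned an 88.2-fold range in the control libraries. Mrpl22, which lines the tunnel through which the new protein leaves, was highest, with 109.5 and 115.3 FPKM in control and 141.6 and 115.4 FPKM in knockdown libraries. Mrpl12, the stalk protein that recruits translation factors and is present in several copies per ribosome, followed at 85.3 and 80.1 FPKM in control and 83.04 and 88.7 FPKM in knockdown libraries. Mrps24 was the highest gene named for the small subunit, at 56.1 and 41 FPKM in control and 55.4 and 54.5 FPKM in knockdown libraries. The next were Mrps30, with a control mean of 45.6 ± 10.2 FPKM (SD, n = 2), and Mrps21, with 34.8 ± 10.4 FPKM (SD, n = 2). The control libraries of Mrps24, Mrps30 and Mrps21 differed by more than the groups did, so the order of these 3 is within their spread.

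At the other end stood Mrps35 at 1.27 and 1.28 FPKM in control and 1.15 and 1.26 FPKM in knockdown libraries. Mrpl33, Mrpl14 and Mrpl48 had control means of 1.45, 1.82 and 1.87 FPKM, and Mrps25 and Mrps36 of 2.32 and 2.63 FPKM. These levels are per length of the counted gene model, and the length implied by the steps ran from 566 bases to 8631 bases, the longest being that of Mrps35. Across the 77 members the level and this length had a Spearman correlation of -0.622, in which FPKM and length share the length itself. Of the genes named at the low end, Mrps35, Mrpl48, Mrpl33 and Mrps25 have implied lengths of 6576 to 8631 bases. Mrpl14 and Mrps36 have only 949 and 1274 bases. The order was much alike in both groups, with a Spearman correlation of 0.965 between the group means over the 77 members, which share the same 4 libraries and gene models.

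**Figure D1:**
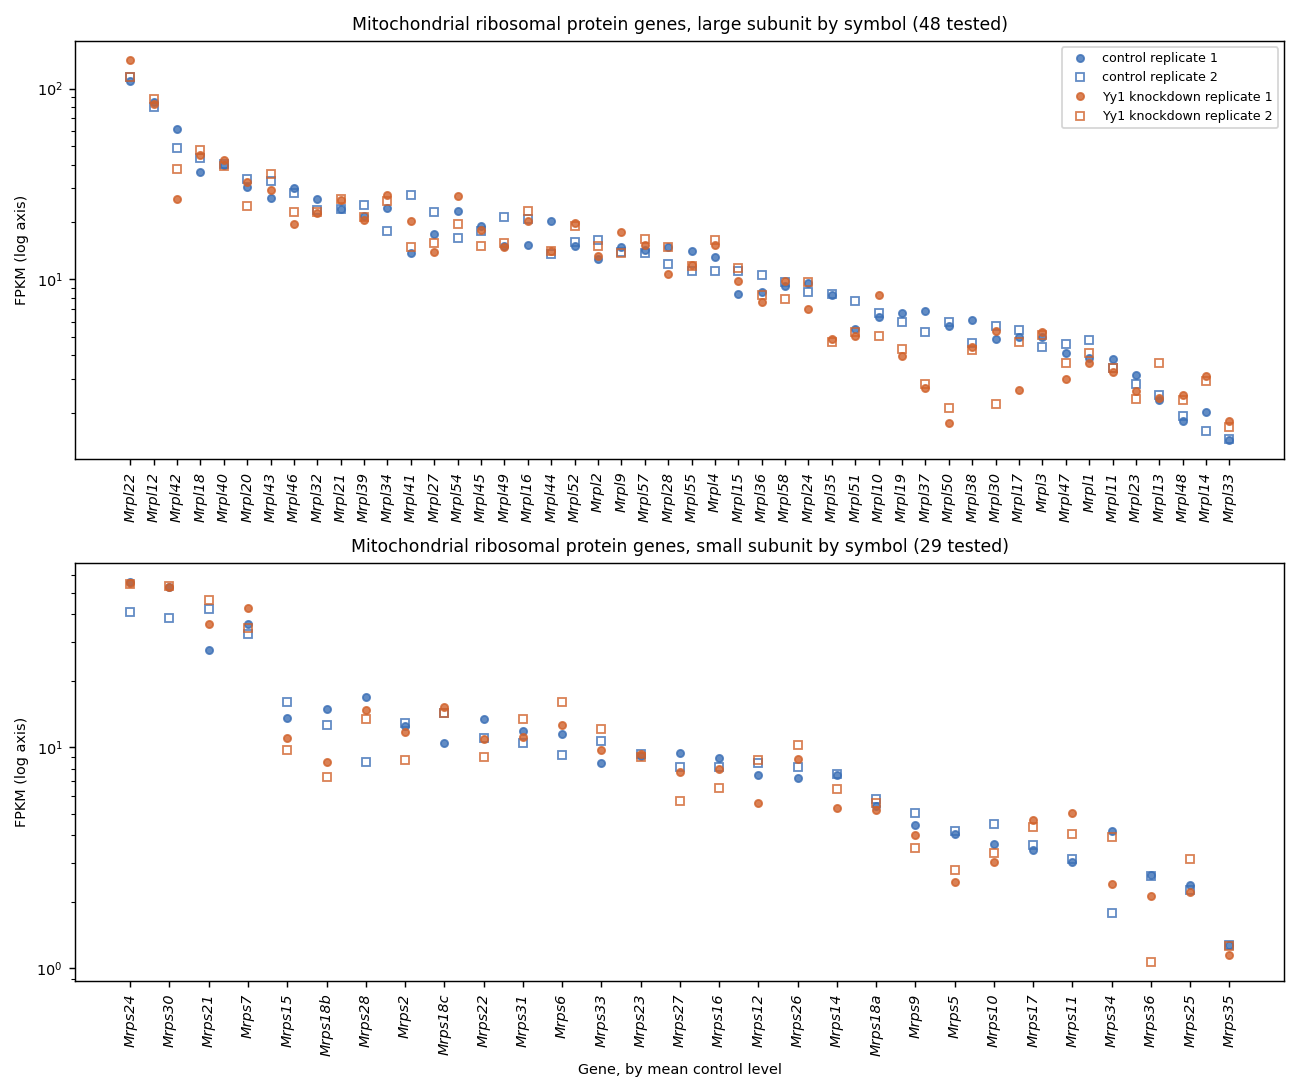
FPKM on a log axis of each tested member in the 4 libraries, 48 named for the large subunit above and 29 for the small subunit below, ordered by mean control level (filled symbols replicate 1, open symbols replicate 2). Mrpl22 and Mrpl12 lead the large subunit, and Mrpl50, Mrpl37 and Mrpl35 are among the genes whose knockdown libraries lie below both controls.

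No member passed the test between Yy1 knockdown and control, and those with the smallest p, led by Mrpl50 and Mrpl37, had lower means in the knockdown. In that test, limma on log2(FPKM + 1) with p adjusted after Benjamini-Hochberg over 12120 genes, 0 of 77 members passed an adjusted p of 0.05, and 0% of all genes tested did. At an unadjusted p under 0.05 there were 8 members, all of them lower, which is 10.4% of the 77 beside 4.69% of all genes tested on that side. Of the 8216 protein-coding genes tested, 5.33% were on that side. On the higher side there were 0 members, beside 4.22% of all genes tested. In bulk libraries fewer cells of a type and less RNA per cell cannot be told apart. The count of 8 was 3 without control replicate 1, where 2 members were higher, 4 without control replicate 2, and 6 without either knockdown replicate. It was 5 of 54 members with a filter of 5 FPKM, which tests fewer genes.

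Both knockdown libraries were below both controls in 27 members, which is 35.1% of the 77 beside 18.9% of all genes tested. Both were above both controls in 16 members, or 20.8%, beside 21.8% of all genes tested. The remaining 34 members overlapped. The median log2 fold change of the 77 was -0.07, beside 0.02 over all genes tested, and 43 members, or 55.8%, were lower beside 46.8% of all genes tested. Of the 8216 protein-coding genes tested, 22.1% had both knockdown libraries below both controls and 21.8% above. By log2 fold change 49.5% of these genes were lower, with a median of 0.003. The summed level of the 78 members was 1226 and 1213 FPKM in control and 1220 and 1206 FPKM in knockdown libraries, so the total hardly differed. On the log2 scale 34 of the 77 members lay within 0.2 of no change, beside 5892 of the 12120 genes tested.

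The median absolute log2 difference of the 77 members was 0.22 between groups, 0.16 between the control replicates and 0.16 between the knockdown replicates. For several members the replicates of a group differed more than the groups did. Mrpl41 had 13.8 and 27.7 FPKM in its control libraries and 20.3 and 14.8 FPKM in its knockdown libraries. Mrps34 had 4.17 and 1.77 FPKM in control and 2.42 and 3.92 FPKM in knockdown libraries, and Mrps28 had 16.9 and 8.58 FPKM against 14.7 and 13.5 FPKM. In Mrpl30 knockdown replicate 2 stood apart at 2.22 FPKM, with the other 3 libraries at 4.9 to 5.71 FPKM. Opposite to these, Mrps23 (9.14 and 9.29 FPKM against 9.35 and 9.06 FPKM) and Mrpl40 (39.6 and 40.3 FPKM against 42.2 and 39.4 FPKM) were nearly level in all 4 libraries.

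The genes with the smallest p are described first for the large subunit. Mrpl50, a mitochondria-specific protein of the large subunit, had 5.7 and 5.98 FPKM in control and 1.76 and 2.11 FPKM in knockdown libraries. The 415 and 397 fragments of the control libraries stood against 127 and 131 in the knockdown libraries, a mean level 3.01-fold lower. Its log2 fold change of -1.22 ± 0.21 (SE) was the largest of all members, with a limma adjusted p of 0.406. The lowest control library was well above the highest knockdown library.

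Mrpl37, also mitochondria-specific, had 6.82 and 5.28 FPKM in control and 2.69 and 2.82 FPKM in knockdown libraries, 2.19-fold lower on average, with a limma adjusted p of 0.466. Mrpl35, a descendant of a bacterial protein of the large subunit, had 8.26 and 8.44 FPKM in control and 4.9 and 4.68 FPKM in knockdown libraries, 1.74-fold lower, with a limma adjusted p of 0.5. The groups did not overlap in either gene, and the control libraries stood closer together for Mrpl35 than for Mrpl37. Mrpl42 is mitochondria-specific and the third most abundant member in control embryos, with 61.4 and 48.9 FPKM in control and 26.4 and 37.7 FPKM in knockdown libraries. It was 1.72-fold lower on average, but knockdown replicate 1 was much lower than replicate 2, and the limma adjusted p was 0.515.

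Mrpl46, a protein of the central protuberance, had 30.1 and 28.3 FPKM in control and 19.5 and 22.6 FPKM in knockdown libraries, with a limma adjusted p of 0.532. Mrpl19, a bacterial-type protein, had 6.68 and 5.97 FPKM in control and 3.98 and 4.31 FPKM in knockdown libraries, with a limma adjusted p of 0.548. Both genes had all control libraries above all knockdown libraries. Mrpl27, whose bacterial relative reaches toward the peptidyl transferase centre, had 17.2 and 22.6 FPKM in control and 14 and 15.5 FPKM in knockdown libraries, with a limma adjusted p of 0.606.

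Among the 10 large-subunit genes with the smallest p, 3 lay on the higher side. Mrpl14 had 2.02 and 1.61 FPKM in control and 3.12 and 2.95 FPKM in knockdown libraries, from 48 to 101 fragments. Mrpl52 had 15.01 and 15.8 FPKM in control and 19.7 and 19.1 FPKM in knockdown libraries, and Mrpl4, a bacterial-type protein of the exit tunnel, had 13.1 and 11.1 FPKM against 15.2 and 16.1 FPKM. In each of them both knockdown libraries were above both controls. Their limma adjusted p lay between 0.586 for Mrpl14 and 0.608 for Mrpl4.

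For the small subunit Mrps18b came first, with 14.9 and 12.5 FPKM in control and 8.56 and 7.35 FPKM in knockdown libraries. It was 1.72-fold lower on average, its log2 fold change was -0.72 ± 0.18 (SE), and the limma adjusted p was 0.5. Mrps18b is 1 of 3 paralogues descended from the same bacterial protein, and the other 2 overlapped between groups. Mrps18a stood at 5.4 and 5.82 FPKM in control and 5.23 and 5.57 FPKM in knockdown libraries. Mrps18c stood at 10.4 and 14.4 FPKM in control and 15.2 and 14.3 FPKM in knockdown libraries. The limma adjusted p was 0.956 for Mrps18a and 0.735 for Mrps18c, and the difference between paralogues itself was not tested.

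Mrps15, a bacterial-type protein that binds the small-subunit rRNA, had 13.5 and 15.9 FPKM in control and 11 and 9.76 FPKM in knockdown libraries, with a limma adjusted p of 0.548. Mrps5, another bacterial-type protein, had 4.06 and 4.19 FPKM in control and 2.47 and 2.78 FPKM in knockdown libraries, with a limma adjusted p of 0.566. Both had no overlap between groups. Mrps14 had 7.51 and 7.54 FPKM against 5.31 and 6.45 FPKM, and Mrps27, a pentatricopeptide repeat protein, had 9.38 and 8.17 FPKM against 7.72 and 5.69 FPKM. On the higher side Mrps6 had 11.5 and 9.19 FPKM in control and 12.5 and 16.04 FPKM in knockdown libraries, and Mrps11 had 3.04 and 3.14 FPKM against 5.07 and 4.07 FPKM. With limma the adjusted p ran from 0.607 for Mrps6 to 0.67 for Mrps14 among these genes, and each of the 4 had no overlap between groups.

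**Figure D2:**
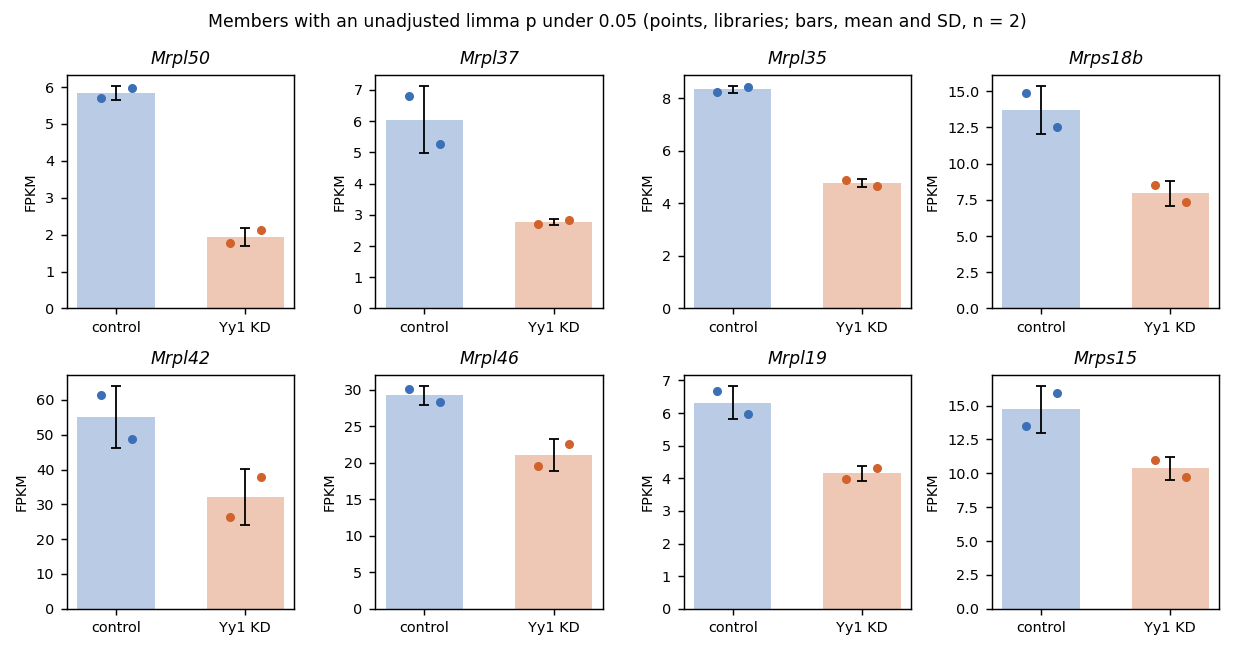
FPKM of the 8 members with an unadjusted limma p under 0.05 (points, libraries; bars and whiskers, mean and SD, n = 2 per group). In each of the 8 genes both knockdown libraries lie below both controls, from Mrpl50 at a 3.01-fold lower mean to Mrpl46 at a 1.39-fold lower mean.

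The symbols do not all match the place of the protein in the ribosome. In structures of the mammalian mitochondrial ribosome Mrps18a and Mrps30 sit in the large subunit, and Mrps36 has been reassigned to the oxoglutarate dehydrogenase complex. Mrps30 had 52.9 and 38.4 FPKM in control and 53.3 and 53.3 FPKM in knockdown libraries. Mrps36 had 2.64 and 2.62 FPKM in control and 2.12 and 1.07 FPKM in knockdown libraries, from 40 to 116 fragments. The table also lists pseudogenes of members, which lie outside the rule. Mrps36-ps1 had 1.9 and 4.16 FPKM in control and 0.959 and 0.335 FPKM in knockdown libraries, and Mrps36-ps2 had 1.22 and 1.44 FPKM against 0 and 0.11 FPKM. Mrpl48-ps had 7.72 and 5.91 FPKM against 9 and 11.2 FPKM, and Mrpl23-ps1 had 9.92 and 11.3 FPKM against 6.68 and 9.71 FPKM. Each of the 4 pseudogenes lay on the same side as its gene by group mean. How the counting shared reads among near-identical copies was not stated in the notes used here, so Mrps36, Mrpl48 and Mrpl23 are uncertain.

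Small and large subunit genes were compared as the rule asks. Among 48 large-subunit genes the median log2 fold change was -0.09, and 28 were lower by group mean and 20 higher. In 15 of them, or 31.3%, both knockdown libraries were below both controls, and in 11, or 22.9%, above. Of 29 small-subunit genes 15 were lower and 14 higher, with a median of -0.0017. In 12 of them, or 41.4%, both knockdown libraries were below both controls, and in 5, or 17.2%, above. Over all genes tested these shares were 18.9% below and 21.8% above. The difference of the medians, small minus large, was 0.09, and without single libraries it ranged from -0.06 to 0.09. The order of the subunits thus turned with the library left out. By place in the structure the medians were -0.08 for 50 large and 0.06 for 26 small subunit genes.

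**Figure D3:**
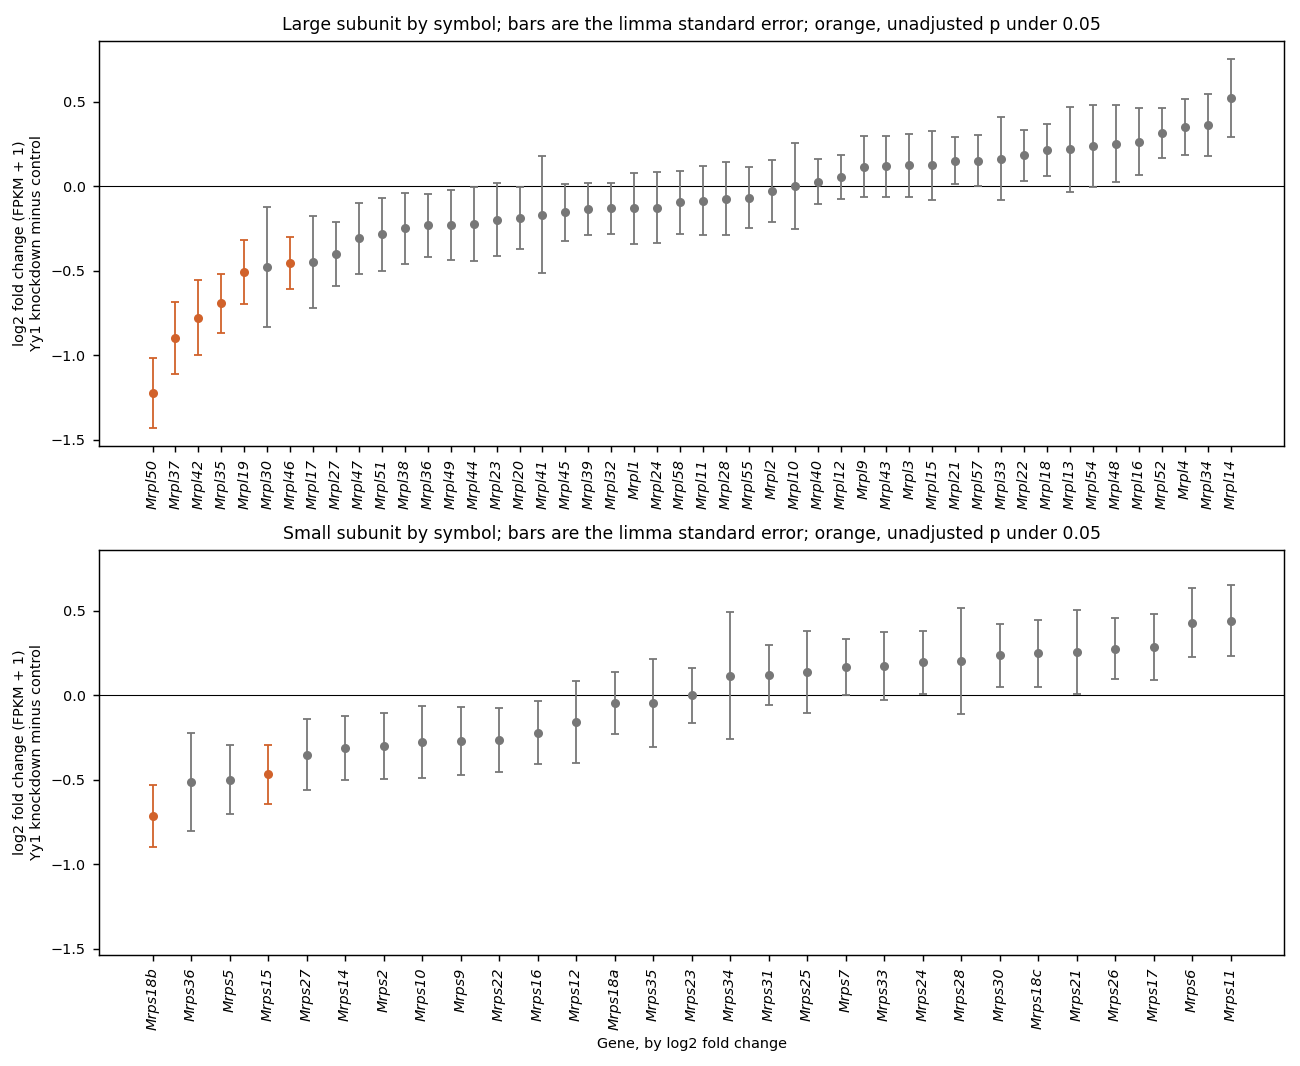
Log2 fold change of FPKM + 1 (Yy1 knockdown minus control) for each tested member, large subunit above and small subunit below, with the limma standard error as bars and unadjusted p under 0.05 in orange. The 6 orange genes of the large and 2 of the small subunit lie at the low end, and both subunits reach from clearly below 0 to above 0, with medians of -0.09 and -0.0017.

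By origin, 45 members listed here as bacterial-type had a median log2 fold change of -0.03, with 23 lower and 22 higher. Mrps18a, Mrps18b, Mrps30, Mrps36 and Mrpl55 were left out of both classes, although Mrps18a and Mrps18b share the bacterial descent of Mrps18c, which was listed. Mrps18b was lower with an unadjusted limma p under 0.05, and the counts by origin do not hold it. The 27 tested mitochondria-specific proteins had a median of -0.1, with 16 lower and 11 higher. Within the large subunit 4 of 18 mitochondria-specific genes (Mrpl50, Mrpl37, Mrpl42 and Mrpl46) and 2 of 29 bacterial-type genes (Mrpl35 and Mrpl19) had an unadjusted p under 0.05, each lower. These are 22.2% and 6.9%, beside 4.69% of all genes tested. The mitochondria-specific genes of the small subunit had a median of 0.12 over 9 genes and 0 such genes on either side.

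By place in the large subunit, the 8 proteins around the polypeptide exit were lower in 7, with a median of -0.18. In 4 of them both knockdown libraries were below both controls, or 50%, beside 18.9% of all genes tested, and in 1 above, or 12.5%, beside 21.8%. Mrpl17, among these, had 5 and 5.41 FPKM in control and 2.64 and 4.68 FPKM in knockdown libraries, and the 1 gene on the higher side was Mrpl22. Without control replicate 1, and likewise without knockdown replicate 1, 6 of the 8 were lower. Mrpl4, named above for the exit tunnel, was not on this list and was higher by group mean. The 4 tested stalk proteins all overlapped between groups, as did 7183 of the 12120 genes tested. Their median was 0.03, and Mrpl12 had a log2 fold change of 0.05 ± 0.13 (SE). Of 6 proteins of the central protuberance 3 were lower and 3 higher, with a median of -0.11. None of the members of these 3 lists passed with limma over all genes tested.

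Promoters of the members were searched for short words in RefSeq sequence of GRCm38.p6 (the mm10 assembly), in a window that spans 250 bases before to 50 bases after each start. The table matched 69 of the 78 members, without Mrpl4, Mrpl13, Mrpl15, Mrpl19, Mrpl38, Mrpl54, Mrps28, Mrps34 and Mrps35. The word AANATGGC, taken for the YY1 motif, was searched on both strands. It was held by 21 of 69 members, or 30.4%. Of the 6699 tested protein-coding genes with a promoter entry 786 held it, or 11.7%, and of all 27025 genes with a promoter 6.96%. In 16 members, or 23.2%, the word lay on the gene's own strand within the 50 bases after the start, its first base at 7 to 37 bases. Of the tested protein-coding genes 4.55% held it there. The word contains ATGGC, so it can overlap a start codon, and a match is not evidence of binding.

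The windows of 30 bases below show the word for the 3 of the 8 lower members whose searched promoter holds it. Among the 8, Mrpl19 had no promoter entry, and a word near Mrpl46 lies past the searched 50 bases, as given below. Windows are also shown for Mrps18a, Mrps30 and Mrpl18, which hold the same word and were not among those 8. The word is in capitals, and each window reads 5′ to 3′ along the gene.

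Mrpl37, chr4:107066822-107066851, minus strand: ctgcacgggcaAAGATGGCggcgtccaggt

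Mrpl35, chr6:71823743-71823772, minus strand: aggcaggctgcAAGATGGCggcttccatct

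Mrpl42, chr10:95501904-95501933, minus strand: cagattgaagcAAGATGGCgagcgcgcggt

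Mrps18a, chr17:46111004-46111033, plus strand: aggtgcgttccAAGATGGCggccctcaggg

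Mrps30, chr13:118387219-118387248, minus strand: cgcggcgggcgAAAATGGCggcggccaggt

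Mrpl18, chr17:12916067-12916096, minus strand: tacccacagttAACATGGCtgcgactagtt

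The same word thus stood in Mrpl37, Mrpl35 and Mrpl42 at 24 to 28 bases after the start, and in Mrps18a, which differed little between groups, at 12 bases. Mrpl18, with the word at 7 bases, had 36.4 and 43.5 FPKM in control and 44.8 and 47.9 FPKM in knockdown libraries. The Mrpl18 gene is listed up to base 12917787 on the minus strand, so the start searched lies inside it, as in some other members. Over the members, 15 of 21 with the word were lower (median -0.13) and 25 of 47 tested members without it (median -0.03). Both knockdown libraries were below both controls in 9 of the 21, or 42.9%, and in 15 of the 47, or 31.9%. Among tested protein-coding genes the same held for 36.3% with the word and 20.3% without it. Over the tested protein-coding genes the word went with 61.2% lower of 786 (median -0.08), and its absence with 48% lower of 5916 table entries (median 0.01). An unadjusted p under 0.05 on the lower side was reached by 10.8% of the 786 and 4.5% of the 5916. These are descriptions of the same 4 libraries, and the members add no separate support.

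Other words were CCGGAAG for ETS factors, CGCANGCG for NRF1, the CCAAT box (CCAAT) and the TATA box (TATAAA), each on both strands. CCGGAAG was held by 37.7% of the members beside 23.7% of tested protein-coding genes, and CGCANGCG by 29% beside 21.9%. The CCAAT box was held by 39.1% beside 43.7%, and the TATA box by 7.25% beside 8.2%. Mrpl50, the member with the largest fold change, held none of the YY1, ETS and NRF1 words in this window, which says only that those letters are not in it. Mrps18b held the ETS word on the opposite strand, its first base 44 bases after the start. It also held the NRF1 word, whose letters read the same on both strands here, 224 bases before its start, shown in capitals.

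Mrps18b, chr17:35916646-35916675, minus strand: aaacggcccgaCGCATGCGcactgggagca

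**Figure D4:**
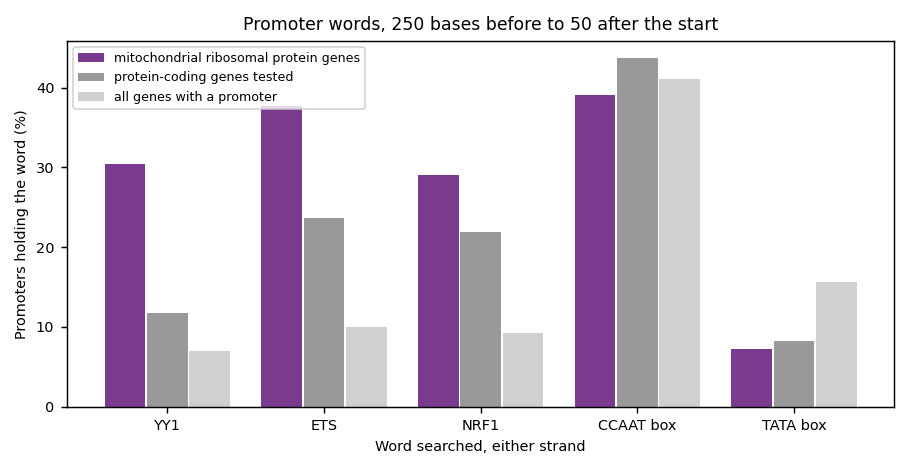
Share of promoters (%) that hold each word on either strand, for 69 mitochondrial ribosomal protein genes, 6699 protein-coding genes tested and 27025 genes with a promoter. The YY1 word is held by 30.4%, 11.7% and 6.96% of these.

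Members lie on 17 chromosomes, with the most, 11, on chromosome 11. Of 69 members 26, or 37.7%, had a start within 1000 bases of the start of a gene running the other way, beside 21.2% of tested protein-coding genes and 13.2% of all protein-coding genes with a promoter. Neighbours of this kind included Hira of Mrpl40, Tcp1 of Mrpl18, Twnk of Mrpl43 and Ndufb5 of Mrpl47. Zfp189, which starts 93 bases from Mrpl50, had control and knockdown means of only 0.265 and 0.0586 FPKM. Ptcd2, which starts 108 bases from Mrps27, had means of 11.95 and 7.8 FPKM.

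A single pair joined 2 members head to head. Mrpl46 on chromosome 7 (78775341 to 78783089, minus strand) and Mrps11 (78783131 to 78792988, plus strand) start 42 bases apart. Mrpl46 had a log2 fold change of -0.46 ± 0.15 (SE) and Mrps11 one of 0.44 ± 0.21 (SE), and in both genes the groups did not overlap. Neither passed with limma (adjusted p = 0.532 and 0.61), and the difference between the 2 genes itself was not tested. The YY1 word of this pair lies 107 bases before the start of Mrps11, which is 59 bases past the start of Mrpl46 and on the strand of Mrpl46. That place is outside the searched window of Mrpl46, which ends 50 bases after the start. Mrps11 was therefore counted above among the 21 members with the word, and Mrpl46 among the 47 without it. The word is shown along Mrps11, in capitals, so that it reads as the reverse complement.

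Mrps11, chr7:78783013-78783042, plus strand: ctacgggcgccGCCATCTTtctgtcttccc

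**Figure D5:**
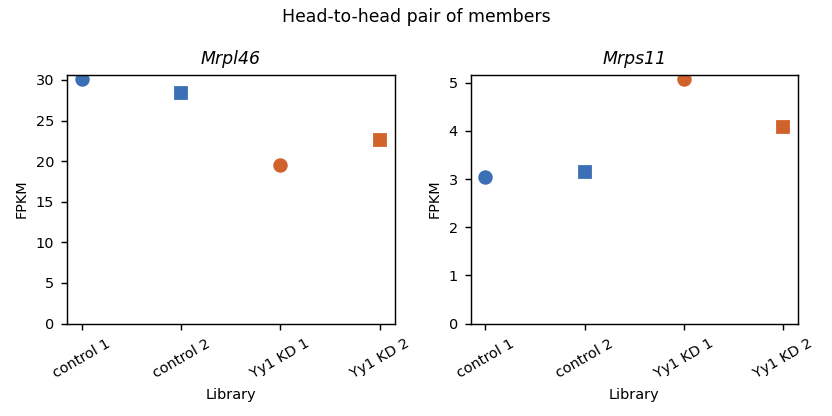
FPKM of Mrpl46 and Mrps11 in each of the 4 libraries, axes starting at 0. Mrpl46 stands at 30.1 and 28.3 FPKM in control and 19.5 and 22.6 FPKM in knockdown libraries, and Mrps11 at 3.04 and 3.14 against 5.07 and 4.07 FPKM.

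The list of ribosomal proteins with other symbols had 5 tested genes, 4 of them lower by group mean. Gadd45gip1, a large-subunit protein also called CRIF1, had 10.3 and 11.9 FPKM in control and 15 and 15.2 FPKM in knockdown libraries, with a limma adjusted p of 0.556. It was the 1 gene of this list with an unadjusted p under 0.05, on the higher side. Chchd1 of the small subunit had 30.7 and 31.4 FPKM against 22.6 and 26.9 FPKM. Both had no overlap between groups, on opposite sides. Aurkaip1, Ptcd3 and Dap3 overlapped, and Aurkaip1 had control and knockdown means of 33.1 and 28.4 FPKM.

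Of 27 assembly factors and rRNA modifiers of the mitochondrial ribosome, 25 were in the table and 23 were tested, 9 lower and 14 higher with a median of 0.03, which turned to -0.01 without control replicate 1 and -0.08 without knockdown replicate 2. At an unadjusted p under 0.05 there were 2, both lower, or 8.7% beside 4.69% of all genes tested. Eral1, a GTPase that binds the rRNA of the small subunit, had 5.6 and 5.21 FPKM in control and 2.23 and 1.78 FPKM in knockdown libraries, 2.7-fold lower. Rpusd4, a pseudouridine synthase of the rRNA of the large subunit, had 3.74 and 3.68 FPKM in control and 1.25 and 0.928 FPKM in knockdown libraries, 3.4-fold lower. For both the groups stood well apart and the limma adjusted p was 0.462. Mettl17 had means of 2.13 and 1.32 FPKM, and Ngrn of 11.6 and 14.6 FPKM.

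Of 13 tested mitochondrial translation factors 6 were lower and 7 higher, with a median of 0.07. Both knockdown libraries were above both controls in 5, or 38.5%, beside 21.8% of all genes tested. They were below both in 2, or 15.4%, beside 18.9%. At an unadjusted p under 0.05 there was 1, Tufm, on the higher side, beside 4.22% of all genes tested. Tufm, the mitochondrial elongation factor Tu, had 41.8 and 40.1 FPKM in control and 54.4 and 57 FPKM in knockdown libraries, with a limma adjusted p of 0.521. Slirp, which with Lrpprc stabilises mitochondrial mRNAs, had 1.25 and 1.83 FPKM in control and 1.05 and 0.396 FPKM in knockdown libraries. Oxa1l, the insertase of newly made membrane proteins, had means of 3.84 and 3.01 FPKM, and Taco1 of 2.64 and 3.36 FPKM.

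The mitochondrial rRNAs had lower group means after knockdown, by an amount that rested on control replicate 1. The small-subunit rRNA mt-Rnr1 had 22050 and 17003 FPKM in control and 16339 and 15874 FPKM in knockdown libraries. The large-subunit rRNA mt-Rnr2 had 26831 and 18842 FPKM in control and 19317 and 17343 FPKM in knockdown libraries. Control replicate 1 was the highest library for both rRNAs, and mt-Rnr2 overlapped between groups. The log2 fold change of mt-Rnr1 was -0.27, or -0.08 without control replicate 1 and -0.06 with quantile normalization. That of mt-Rnr2 was -0.3, or -0.04 without control replicate 1 and 0 with quantile normalization. The limma adjusted p was 0.713 for mt-Rnr1 and 0.725 for mt-Rnr2. The 13 mitochondrial mRNAs, the templates of these ribosomes, were lower by group mean in 13 of 13 with a median of -0.18. The count was 10 of 13 without control replicate 1, with a median of -0.07, and 12 of 13 with quantile normalization. Without knockdown replicate 1 the median was -0.09. Both knockdown libraries were below both controls in 6 of the 13, or 46.2%, beside 18.9% of all genes tested. The 13 are all encoded by mitochondrial DNA and were read from the same 4 libraries, so they are not 13 separate observations. Of these mt-Nd6 had 2116 and 2010 FPKM in control and 1712 and 1729 FPKM in knockdown libraries, with a limma adjusted p of 0.617.

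The cytosolic ribosomal proteins, set beside the members as a description, lay on the other side. Of 88 tested 73 were higher and 15 lower, with a median of 0.14, against -0.07 for the 77 members. Both knockdown libraries were above both controls in 44.3% of the cytosolic genes and in 20.8% of the members, and below both in 2.27% and 35.1%. All genes tested gave 21.8% above and 18.9% below, so the members' share above was near that of all genes. Without single libraries, 67 to 76 of the 88 cytosolic genes were higher, and 63 were with quantile normalization. Cytosolic ribosomal protein genes have many pseudogene copies, and the difference between the 2 lists was not tested.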

How the data were processed

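RNA-seq values of 4 libraries were used. FPKM were deposited by the authors. Per the labels' protocols, the kit was a SMART-Seq version that keeps strand. The submitters' processing notes name HISAT2 2.2.1, featureCounts, Trim Galore 0.6.7 and the mm10 build without saying which assay each served. Not given in the sources used here are annotation release, strand setting and multi-mapping, so gene copies, overlapping and antisense genes are uncertain. The 49585 rows hold 49492 distinct symbols. Genes averaging 1 FPKM or more were tested on log2(FPKM + 1) with group alone (limma 3.58.1 in R 4.3.3, trended eBayes, Benjamini-Hochberg over 12120 genes, threshold 0.05). Fold changes of low genes are understated on it. Whole fragments were recovered within 0.001 fragments for 12117 of them, by finding a whole gene length that makes all libraries whole; a shared factor can understate a gene's fragments and length, and fragments may include PCR copies. Counts of the 2 replicates differed by more than sampling noise, with a chi-square over its degrees of freedom of 75.8 (control) and 50.9 (knockdown). The fit was also run on simulated data, whose outcome is not reported here and is not used as support. Members, lists, promoter words and tests were chosen with earlier results of these data known. Named were Yy1, the members with the smallest p (10 large, 8 small), the 3 highest and 3 lowest by control level per subunit, the Mrps18 paralogues, Mrps30, Mrps36, members under the filter, and up to 4 genes of each related list by smallest p. Pseudogenes, members named for their replicate spread, members named for position or promoter words, and neighbours were chosen after their values were seen. Alternatives were leaving out each library, a replicate block, a pseudocount of 0.1, 2 other filters (5 FPKM or none), scaling by median ratio or quantiles, robust or untrended eBayes, voom and subunits by structure.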

Additional observations from a re-analysis of the deposited data

How the results depend on the processing

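No member passed an adjusted p of 0.05 with limma under any alternative run, and the smallest for a member was 0.153, for Mrpl50 with voom on recovered fragments. Over all genes limma called 0, against 4 with a filter of 5 FPKM, 1 with robust eBayes and 13 with voom; the cause was not tested beyond the fewer genes of the stricter filter. The median log2 fold change of the small subunit was 0.0590 with the 5 FPKM filter and 0.0567 with subunits by structure. Leaving out 1 library gave medians of -0.0683 to -0.0198 for the large and -0.0815 to 0.0187 for the small subunit, and differences between them of -0.0617 to 0.0869. These fits have 1 library in a group and assume that it varies like the other group. They turned the direction of 4 of the 48 genes named by rule, Mrps25 (-0.0451 to 0.318), Mrps21 (-0.0464 to 0.556), Mrps24 (-0.0287 to 0.415) and Ptcd3 (-0.309 to 0.00369). Mrpl41, Mrps34, Mrps28 and Mrpl30, which were named for their replicate spread, were not among the 48. Replicate numbers are shared between groups only as numbers (correlation of deviations 0.0994), and with a replicate block 0 genes and 0 members were called, 6 members having an unadjusted p under 0.05. The 2 libraries per group limit every comparison, and genes under 100 fragments also carry large counting error.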
